A study of Homo sapiens with 30 samples.

Results

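The regions described here were open chromatin, as called by ATAC-seq, in RWPE1 cells that expressed ERG, whether or not the cells also carried active AKT. The regions were chosen by ATAC-seq peak calls alone. They are the peaks of the RWPE1-ERG/mAKT list on chromosomes 1 to 22 and X that shared at least 1 bp with a peak of the RWPE1-ERG list and none with a peak of the RWPE1-mAKT list. Of the 41731 peaks, 2024 met this rule, or 4.85%. They are called ERG-line open regions below, for the lines whose lists hold them, and are the class open with ERG, with or without mAKT, in the plots. The other peaks of the same list were 34871 regions called in all 3 lines, 2439 regions shared with RWPE1-mAKT cells but not with RWPE1-ERG cells, and 2397 regions called in RWPE1-ERG/mAKT cells alone. The ATAC-seq library of RWPE1-vector cells was not analysed here, so a region that was open in RWPE1-vector cells and lost with mAKT cannot be told apart from a region gained with ERG.

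RWPE1 is an immortalized line of normal human prostate epithelium, and the study asked how active PI3K/AKT signaling alters the function of ERG in it. RWPE1-ERG cells carried ERG isoform 1 in the retroviral vector pQCXIH together with empty pBabe-Puro, RWPE1-mAKT cells carried empty pQCXIH and myristoylated AKT in pBabe-Puro, RWPE1-ERG/mAKT cells carried both genes, RWPE1-vector cells carried both empty vectors, and all 4 lines were kept under hygromycin and puromycin. ATAC-seq was conducted with 1 library per line, and ERG ChIP-seq with 1 library, of RWPE1-ERG/mAKT DNA pooled from 3 ChIPs. PolyA RNA was sequenced from 3 libraries of each of the 4 lines, but the deposited FPKM (fragments per kilobase of transcript, scaled to sequencing depth) is 1 pooled value per line. The ERK2 and H3K27me3 ChIP-seq lines carried no AKT construct and were RWPE1-vector and RWPE1-ERG cells with pQCXIH alone, and for H3K27me3 also RWPE1-ERG S96E cells, with a phospho-mutant ERG, and VCaP, a prostate cancer line, was treated with DMSO. No measurement used here therefore has a value per replicate, so no test between libraries was made. Shares of regions are given with 95% Wilson intervals, which cover counting error only, and regions of 1 library are not replicates of a condition. In bulk cells, a change in the fraction of cells that were open or expressing and a change in the level per cell cannot be told apart.

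ERG is a transcription factor of the ETS family. It binds DNA at a GGAA core, is a normal factor of endothelium and some blood cells, is silent in normal prostate epithelium, and is switched on in many prostate tumors by fusion to TMPRSS2. AP-1, made of JUN and FOS family proteins, binds TGANTCA and often sits beside ETS factors at enhancers. H3K27me3 is the mark that the PRC2 complex places on silent chromatin. AKT is the main kinase downstream of PI3K.

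The sequences below are windows of 121 bp centered on the summit of an ERG ChIP-seq peak that lay on an ERG-line open region, read from the + strand of hg19/GRCh37, and each is named for the nearest gene. Capitals mark ETS cores, meaning AGGAA or CGGAA followed by A or G on either strand, and the AP-1 sequence TGANTCA. The LINC00494, TNS4 and TRPC4AP windows are shown because they are among the strongest ERG peaks on these regions.
LINC00494 window, chr20:46842635-46842755: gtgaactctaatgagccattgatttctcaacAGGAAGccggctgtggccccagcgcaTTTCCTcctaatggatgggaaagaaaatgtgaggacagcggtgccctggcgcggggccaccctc
TNS4 window, chr17:38673082-38673202: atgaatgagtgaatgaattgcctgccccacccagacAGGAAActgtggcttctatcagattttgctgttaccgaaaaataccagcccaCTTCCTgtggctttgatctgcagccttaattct
TRPC4AP window, chr20:33640581-33640701: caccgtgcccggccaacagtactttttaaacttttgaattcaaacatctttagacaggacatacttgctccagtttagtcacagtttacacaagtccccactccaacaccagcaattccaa
The LINC00494 window holds 2 cores, with the center of the nearest 0.5 bp from the summit, and the TNS4 window also holds 2. The TRPC4AP window holds none, so a strong ERG peak was not always placed on a core of this spelling. The next windows are shown because the nearest gene was at least 2-fold higher in RWPE1-ERG cells than in RWPE1-vector cells. IL1B was named by rule, and SGK1, LIMCH1 and PAPL were chosen after their values were seen.
IL1B window, chr2:113569473-113569593: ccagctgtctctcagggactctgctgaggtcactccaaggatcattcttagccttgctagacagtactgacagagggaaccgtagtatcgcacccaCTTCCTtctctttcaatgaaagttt
SGK1 window, chr6:134679636-134679756: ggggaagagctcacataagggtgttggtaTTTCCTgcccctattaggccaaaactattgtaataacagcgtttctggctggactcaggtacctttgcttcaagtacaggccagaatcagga
LIMCH1 window, chr4:41509543-41509663: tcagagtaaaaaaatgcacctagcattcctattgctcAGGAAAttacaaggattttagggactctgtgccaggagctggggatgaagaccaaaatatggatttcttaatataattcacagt
PAPL window, chr19:39564410-39564530: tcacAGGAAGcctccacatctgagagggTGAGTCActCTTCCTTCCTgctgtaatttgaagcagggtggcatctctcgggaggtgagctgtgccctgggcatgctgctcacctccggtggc
Each of these 4 windows has an ETS core within 50 bp of the summit. The ERG peaks of the IL1B, SGK1 and LIMCH1 windows had a −log10 q-value of 1.34, under the limit of 2 applied below. That of the PAPL window had 3.65. In the PAPL window, 3 cores, 2 of them overlapping, surround an AP-1 sequence. The last window is shown because it pairs a core with an AP-1 sequence, 34.6 kb from TGFBI, a secreted matrix protein. Its ERG peak had a −log10 q-value of 0.887, also under that limit.
TGFBI window, chr5:135329673-135329793: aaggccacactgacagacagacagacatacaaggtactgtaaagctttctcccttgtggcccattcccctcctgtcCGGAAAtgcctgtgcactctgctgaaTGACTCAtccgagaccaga

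By construction, the ERG-line open regions had a peak in both ERG lines, and their ATAC values describe the rule rather than a finding. Their median width was 299 bp, with a range of 200 to 1857 bp. The median fold enrichment over local background was 4.46 in the RWPE1-ERG/mAKT list and 5.52 for the overlapping peaks of the RWPE1-ERG list, and the value in the RWPE1-ERG list was the higher for 1472 regions (72.7%). For comparison, regions called in all 3 lines were wider (median 494 bp) and stronger (median 5.82), whereas the regions shared with RWPE1-mAKT cells alone had nearly the same width and strength as the ERG-line ones (304 bp and 4.47). At the edges of the rule, 9 regions shared 50 bp or less with the RWPE1-ERG peak and 69 lay within 1000 bp of a RWPE1-mAKT peak. The median gap to the nearest RWPE1-mAKT peak was 12200 bp. The closest excluded regions were 12 peaks of all 3 lines that shared no more than 50 bp with a RWPE1-mAKT peak. The 3 regions with the highest fold enrichment in RWPE1-ERG/mAKT cells were far from any gene of the expression table, and the centers of both the second and the third lay in an intron of a GENCODE gene. They were chr6:104850385-104850818 (12.6), 325 kb from HACE1, chr2:123506186-123506552 (11.7), 981 kb from TSN, and chr6:96752951-96753343 (11.5), 89.5 kb from FUT9. In the RWPE1-ERG list these 3 regions had fold enrichments of 4.26, 4.88 and 4.88.

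ERG itself was found at a minority of the ERG-line open regions, but at a larger share of them than of any other class. In RWPE1-ERG/mAKT cells, 122 of the 2024 regions overlapped an ERG ChIP-seq peak, or 6.03% (5.07 to 7.15%). Over all 41731 open regions the share was 3.85%. It was 4.03% (3.82 to 4.24%) for regions called in all 3 lines, 2.04% (1.55 to 2.69%) for regions of RWPE1-ERG/mAKT cells alone, and 1.35% (0.965 to 1.89%) for regions shared with RWPE1-mAKT cells. None of these 3 intervals overlapped that of the ERG-line regions. The ERG peaks were not used to choose the regions.

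**Figure D1:**
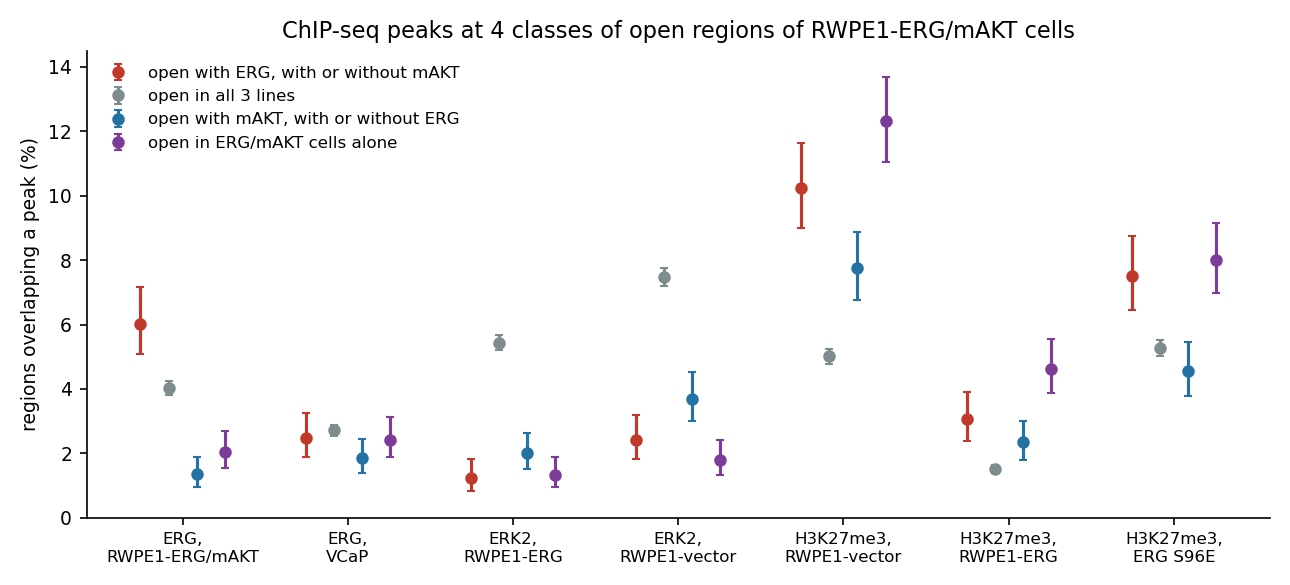
Share of regions (%, linear axis) that overlapped a ChIP-seq peak, for 7 peak lists and the 4 classes of open regions of RWPE1-ERG/mAKT cells. Points are shares and bars are 95% Wilson intervals. For ERG in RWPE1-ERG/mAKT cells the ERG-line regions lie highest (6.03%), for ERG in VCaP the classes lie close together, and for ERK2 the regions called in all 3 lines lie highest.

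The shares were also compared at like peak strength and width. When the regions were divided at the quartiles of ATAC fold enrichment of the ERG-line regions, the share with an ERG peak was 4.74% in the lowest group and 4.35%, 7.11% and 7.91% in the groups above it. The matching shares of regions called in all 3 lines were 2.67%, 3.06%, 3.39% and 4.78%. At each level the ERG-line regions had the higher share, with intervals that overlapped in both lower groups and not in the upper ones. Among narrow regions of 200 to 300 bp, 5.88% of ERG-line regions had an ERG peak compared to 1.96% of regions called in all 3 lines. Above 500 bp the shares were closer, at 6.45% and 4.76%. At distances above 5 kb from any gene start, 6.57% (5.51 to 7.81%) of the ERG-line ones and 5.05% (4.77 to 5.34%) of those called in all 3 lines had an ERG peak.

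**Figure D2:**
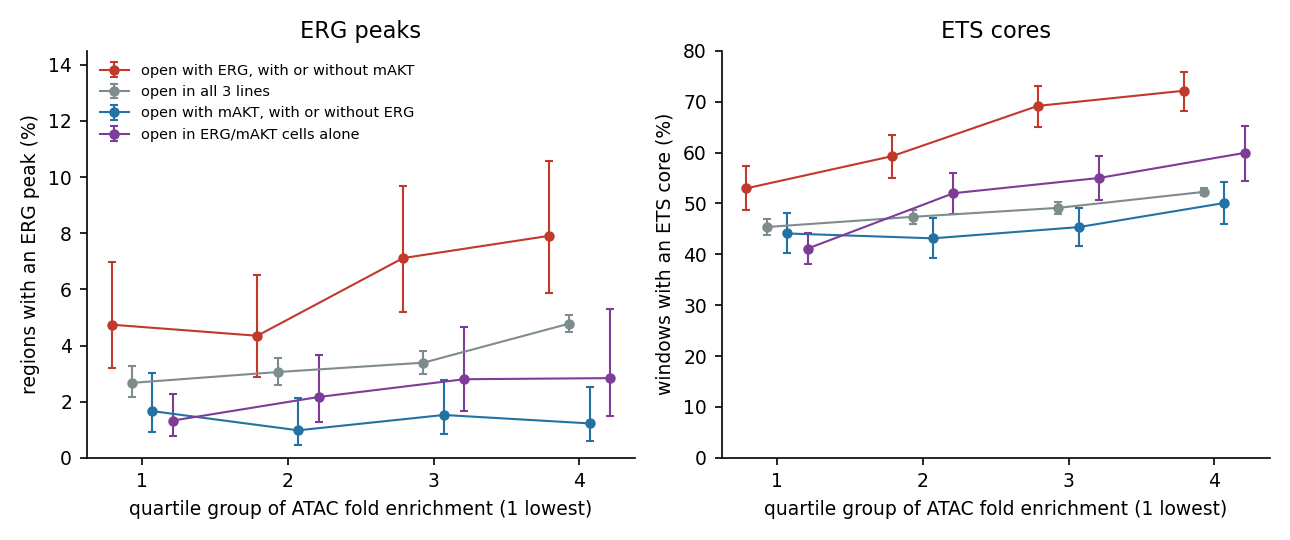
Share of regions with an ERG peak (left, %) and share of windows with an ETS core (right, %) against the quartile group of ATAC fold enrichment, with limits set by the ERG-line regions (1 lowest, 4 highest). Points are shares, bars are 95% Wilson intervals, and the 4 colors are the classes. The ERG-line regions lie above the other classes in every group of both panels, from 4.74% to 7.91% for ERG peaks and from 53.0% to 72.1% for ETS cores.

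The ERG peaks on these regions were of moderate strength. There were 125 of them, and their median fold enrichment was 4.24, the same as the median of the 1482 ERG peaks on regions called in all 3 lines. With a −log10 q-value of at least 2, 23 of the 125 remained (18.4%, 12.6 to 26.1%), compared to 15.9% of those on regions of all 3 lines and 2.41% of the ERG peaks outside open regions. The same share, 18.4%, remained of the 49 ERG peaks on regions of RWPE1-ERG/mAKT cells alone, and 6.06% of the 33 on regions shared with RWPE1-mAKT cells. An ETS core lay within 50 bp of the summit in 88 of the 125 peaks (70.4%, 61.9 to 77.7%). This share was 57.1% (54.5 to 59.6%) for ERG peaks on regions of all 3 lines and 26.8% (25.8 to 27.8%) for ERG peaks outside open regions. It was 69.7% (52.7 to 82.6%) on regions shared with RWPE1-mAKT cells and 61.2% (47.2 to 73.6%) on regions of RWPE1-ERG/mAKT cells alone. Both of these intervals overlapped that of the ERG-line regions. The AP-1 sequence lay within the same distance in 27.2% (20.2 to 35.6%) of ERG peaks on ERG-line regions. It did so in 18.5% on regions of all 3 lines, 21.2% and 20.4% on the other 2 classes in the order above, and 4.59% outside open regions. From ERG summit to nearest core the median distance was 28.5 bp on ERG-line regions.

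The strongest ERG peak on an ERG-line region stood apart from the rest. It covered chr21:39755381-39755816, in a coding exon of ERG, with an ERG fold enrichment of 14.02, and the next highest of the regions was 7.93. Of the 11 coding blocks of ERG, 4 were overlapped by ERG ChIP-seq peaks in RWPE1-ERG/mAKT cells and 0 in VCaP. ATAC peaks overlapped 1 block in RWPE1-ERG and in RWPE1-ERG/mAKT cells and 0 in RWPE1-mAKT cells. The introduced ERG coding sequence and the exons of the gene itself cannot be told apart in these reads, so this region may hold reads of either. Without it, 5.98% of the regions had an ERG peak. The next strongest were in TRPC4AP (chr20:33640542-33640767, ERG fold enrichment 7.93), at chr20:46842333-46842786 (7.85), 146 kb from LINC00494, and at chr17:38672972-38673323 (7.06), 15.1 kb from TNS4, a focal adhesion protein of epithelia. The region near LINC00494 had an H3K27me3 peak in RWPE1-vector cells and none in RWPE1-ERG cells. The remaining 4 regions named by ERG strength were nearest to MIR4470 (7.05), LOC100506272 (6.82), CA10 (6.46, chr17:50225366-50226593) and MIR4686 (6.36, chr11:2202134-2202347). Of the 8 regions, 3 lay within the locus of a gene of the expression table, ERG, TRPC4AP and CA10, and by the fuller GENCODE annotation those near LINC00494, TNS4 and MIR4470 also had their center in an exon or intron.

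The ETS core was held by more of the ERG-line open regions than of any other class, and of the sequences counted it had the largest difference in percentage points from each of them. In windows that reached 100 bp to either side of the region center, 63.4% (61.3 to 65.5%) held a core, compared to 50.2% (49.7 to 50.7%) of regions called in all 3 lines, 49.2% (47.2 to 51.2%) of regions of RWPE1-ERG/mAKT cells alone, 45.6% (43.6 to 47.6%) of regions shared with RWPE1-mAKT cells, and 50.5% of all open regions. In flanking windows placed 1 kb away on each side the shares were much closer, 41.1% for the ERG-line regions and 38.3 to 40.5% for the other classes. Several cores in 1 window were also more common. At least 2 cores were held by 560 regions (27.7%) and at least 3 by 8.89%, compared to 16.8% and 4.44% of the regions called in all 3 lines. The core share was 53.0% in the lowest quartile of ATAC fold enrichment and 72.1% in the highest.

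**Figure D3:**
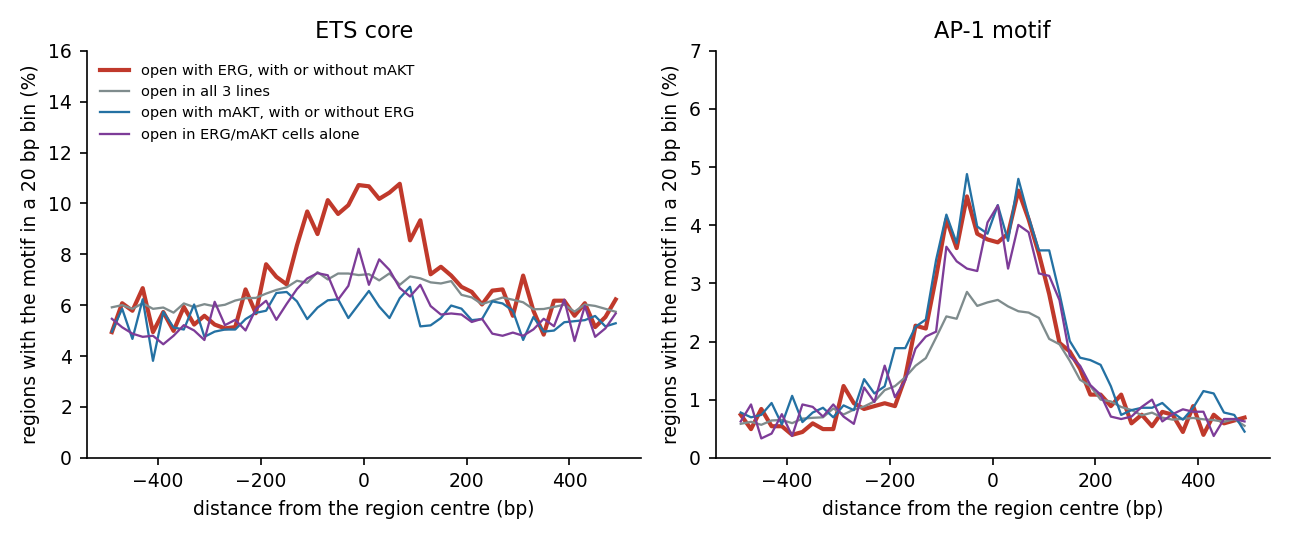
Share of regions with a motif in each 20 bp bin (%, linear axes) against distance from the region center (bp), for the ETS core (left) and the AP-1 sequence (right), with 1 line per class. For the ETS core the ERG-line regions reach 10.7% at the center while the other classes stay lower, and for AP-1 the ERG-line regions run with both classes that were not called in all 3 lines.

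The core share was also compared at like base composition. The ERG-line windows had a median GC content of 44.3%, close to the 43.8% of regions shared with RWPE1-mAKT cells and far from the 55.7% of regions called in all 3 lines. Among windows with 40 to 50% GC, 73.7% (70.4 to 76.8%) of ERG-line regions held a core, compared to 52.3% (51.3 to 53.4%) in all 3 lines and 46.1% (42.9 to 49.3%) of those shared with RWPE1-mAKT cells. Only at 60% GC or above was the share of ERG-line regions, 43.9%, lower than the 47.2% of regions called in all 3 lines, and those intervals overlapped. The core with a CpG, CGGAAG, which is common at gene starts, was held by 6.37% of the ERG-line regions and by 10.7% of the regions called in all 3 lines. The longer ETS sequence GGAAGTGA was held by 4.94% (4.08 to 5.97%) of ERG-line regions compared to 2.31% (2.16 to 2.47%) of all-3-line regions. It was held by 3.88% (3.18 to 4.73%) of regions of RWPE1-ERG/mAKT cells alone, an interval that overlapped that of the ERG-line regions. Of regions shared with RWPE1-mAKT cells, 1.68% held it. GGAAGGAA, a core in tandem, was held by 4.30% (3.50 to 5.27%) of ERG-line regions compared to 2.29% (2.14 to 2.46%) of all-3-line regions. Its shares in the other 2 classes were 2.00% (1.51 to 2.64%) and 2.30% (1.77 to 2.97%), in the same order. As a ratio between classes, GGAAGGAA thus stood further above than the core itself.

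The AP-1 sequence had a share in the ERG-line regions close to that in the other regions that were not called in all 3 lines. It was held by 32.7% (30.6 to 34.7%) of ERG-line windows, 33.8% (32.0 to 35.7%) of those shared with RWPE1-mAKT cells, 29.1% (27.3 to 30.9%) of those of RWPE1-ERG/mAKT cells alone and 21.0% (20.6 to 21.5%) of those called in all 3 lines. In flanking windows 1 kb away the share was 5.71% for the ERG-line regions. An ETS core and an AP-1 sequence stood together in 22.3% of ERG-line windows, 16.7% of windows of RWPE1-ERG/mAKT cells alone, 15.5% of windows shared with RWPE1-mAKT cells and 10.5% of windows called in all 3 lines. The GGAATG sequence of TEAD factors was held by 14.2% of ERG-line regions and by 20.3% of regions shared with RWPE1-mAKT cells. For RUNX (TGTGGT) the shares were 12.6% and 16.2%, and 12.2% of the flanks of ERG-line regions held it. The FOX sequence TGTTTAC was held by 6.57% of ERG-line regions, 7.63% of regions of RWPE1-ERG/mAKT cells alone and 3.11% of regions called in all 3 lines. The CEBP sequence TTGCNNAA was held by 12.4% of ERG-line windows and 9.21% of their flanks, and the GRHL sequence AACNNGTT by 3.75% and 3.66%. All motifs were searched on both strands, and a match is a run of letters rather than a bound site.

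**Figure D4:**
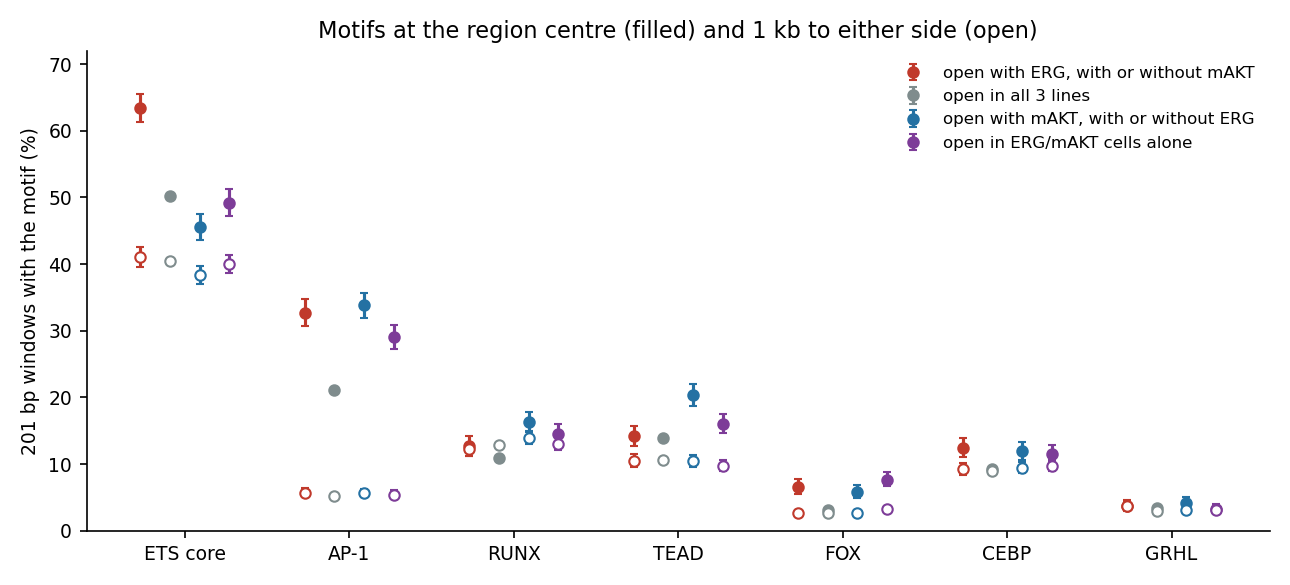
Share of windows that held a motif (%, linear axis) at the region center (filled) and 1 kb away on each side (open), for 7 motifs and the 4 classes. Bars are 95% Wilson intervals. The ETS core share of the ERG-line regions (63.4%) lies above every other class, the AP-1 share is high in all classes other than the regions called in all 3 lines, and TEAD and RUNX are highest in regions shared with RWPE1-mAKT cells.

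ERG peaks and ETS cores went together. Of the ERG-line regions with an ERG peak, 104 of 122 (85.2%, 77.9 to 90.5%) held a core, and of those without, 62.0% (59.8 to 64.1%). Read the other way, an ERG peak was found on 8.11% (6.73 to 9.73%) of the regions with a core and 2.43% (1.54 to 3.81%) of those without. The core share was also higher with an ERG peak than without in each other class. It was 70.2% and 49.4% in regions called in all 3 lines, and 73.5% and 48.7% in regions of RWPE1-ERG/mAKT cells alone. In regions shared with RWPE1-mAKT cells it was 63.6% and 45.3%, with intervals that overlapped. In 723 ERG-line regions (35.7%) there was neither a core nor an ERG peak, a smaller share than the 48.6% of regions called in all 3 lines.

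The other ChIP-seq lists were made in other lines, and none of them in cells with mAKT. ERG peaks of VCaP overlapped 2.47% (1.88 to 3.24%) of ERG-line regions, compared to 2.72% of regions called in all 3 lines, 2.42% of those of RWPE1-ERG/mAKT cells alone and 1.85% of those shared with RWPE1-mAKT cells, and the interval of the ERG-line regions overlapped that of each other class. ERG peaks of both cell types lay on 4 ERG-line regions (0.198%), compared to 0.272% of regions called in all 3 lines and 0 regions of both other classes. The 4 ERG-line regions were in TMCC3 (chr12:94985896-94986185), beside PIK3R3, a regulatory subunit of PI3K (chr1:46505284-46505585), in RAB20 (chr13:111176893-111177230) and 70.3 kb from LOC101927087 (chr4:125350544-125350797), all named after their values were seen. In this order, their ERG fold enrichments in RWPE1-ERG/mAKT cells were 4.24, 3.52, 2.94 and 2.82, the last being the lowest on any ERG-line region. ERK2 peaks were rare. In RWPE1-ERG cells they overlapped 1.24% (0.838 to 1.82%) of ERG-line regions compared to 4.80% of all open regions and 5.44% of regions called in all 3 lines, and in RWPE1-vector cells 2.42% compared to 6.69% and 7.48%. Both other classes were also low, with 1.34% and 1.79% for regions of RWPE1-ERG/mAKT cells alone and 2.01% and 3.69% for regions shared with RWPE1-mAKT cells. The ERK2 list of RWPE1-ERG cells held 5720 peaks and that of RWPE1-vector cells 41265. The part of list size in the difference between these 2 lines was not tested.

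H3K27me3 peaks were more frequent at the ERG-line regions than at regions called in all 3 lines, and most frequent in the line without ERG. In RWPE1-vector cells, 207 of the regions (10.2%, 8.98 to 11.6%) overlapped an H3K27me3 peak, in RWPE1-ERG cells 62 (3.06%, 2.40 to 3.91%), and in cells with the phospho-mutant ERG S96E 152 (7.51%, 6.44 to 8.74%). Regions called in all 3 lines had shares of 5.01%, 1.5% and 5.27%, and regions of RWPE1-ERG/mAKT cells alone had 12.3%, 4.63% and 8.01%. Regions shared with RWPE1-mAKT cells had 7.75%, 2.34% and 4.55%. The lists differed in size in the same order, with peaks covering 242 Mb in RWPE1-vector cells, 138 Mb in RWPE1-ERG cells and 224 Mb in ERG S96E cells, and the part of list size in these shares was not tested. A peak in RWPE1-vector cells and none in RWPE1-ERG cells was seen at 176 ERG-line regions (8.70%), and the reverse at 31 (1.53%). The matching shares were 9.43% and 1.75% for regions of RWPE1-ERG/mAKT cells alone. They were 6.52% and 1.11% for regions shared with RWPE1-mAKT cells, and 4.17% and 0.660% for regions called in all 3 lines. An H3K27me3 peak of RWPE1-vector cells lay on 13 of the 122 regions with an ERG peak, and a peak of RWPE1-ERG cells on 0. Over all 2024 ERG-line regions these counts were 207 (10.2%) and 62 (3.06%).

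Most ERG-line regions lay away from gene starts. Only 92 (4.55%) were within 1 kb of a gene start, compared to 27.2% of regions called in all 3 lines and 3.03% of those shared with RWPE1-mAKT cells. A further 141 (6.97%) had their center in an exon, 1106 (54.6%) in an intron and 685 (33.8%) between genes. The median distance to the start of a protein-coding gene was 54992 bp, compared to 19419 bp for regions called in all 3 lines. They were scattered, and only 81 (4.00%) had another region of their class within 10 kb. By chromosome, they made up 8.08% (6.47 to 10.0%) of the open regions of chromosome 22 and 1.61% (1.12 to 2.32%) of those of chromosome 19. Regions shared with RWPE1-mAKT cells made up 2.77% of the former and 4.32% of the latter.

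Each region was assigned the nearest gene of the expression table by the coordinates that the table gives. The 2024 regions had 1731 nearest genes, 1481 of them nearest to 1 region and 7 to 4 regions, the most for any gene. A gene's locus contained 1047 regions (51.7%), and the others lay a median of 40.7 kb from the gene. For 596 regions (29.4%) several genes were equally near, as overlapping genes can share a locus in the table, and the gene whose annotated position was nearest was taken, then the shorter. Of the 1731 genes, 902 (52.1%, 49.8 to 54.5%) had an FPKM of at least 1 in 1 of the 4 lines or more. This share lay above the 48.5% of all 25839 genes of the table, close to the 53.1% of genes nearest to regions of RWPE1-ERG/mAKT cells alone, and under the 57.9% and 65.4% for regions shared with RWPE1-mAKT cells and for regions of all 3 lines. The 902 genes had median FPKM of 7.598 in RWPE1-vector, 7.83 in RWPE1-ERG, 7.36 in RWPE1-mAKT and 7.17 in RWPE1-ERG/mAKT cells, and all 12531 genes that passed the same filter had medians of 10.6, 10.3, 10.5 and 10.2.

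Few of the nearest genes differed with ERG. Without mAKT, whether more or fewer were higher than of all genes depended on the ratio required. With mAKT, the share that was higher lay under that of all genes at both ratios. A gene is called higher or lower here when its FPKM + 1 differed at least 2-fold between 2 lines, with log2 values given for that ratio. Between RWPE1-ERG and RWPE1-vector cells, 26 of the 902 genes were higher (2.88%, 1.97 to 4.19%) against 3.54% of all genes, and 10 were lower (1.11%, 0.603 to 2.03%) against 0.966%. At a ratio of 1.5 instead of 2, 9.20% (7.48 to 11.3%) were higher against 7.21%, so that the share lay above that of all genes. Between RWPE1-ERG/mAKT and RWPE1-mAKT cells, 6 were higher (0.665%, 0.305 to 1.44%) against 2.03%, and 8 were lower (0.887%) against 0.854%. The upper end of the interval for the 6 genes lies under the share of all genes. With a pseudocount of 0.1 (2.55%, 1.71 to 3.80%, against 2.99%), at a ratio of 1.5 (3.99%, 2.90 to 5.48%, against 4.42%) and with the top 33000 peaks of each list (1.48%, 0.912 to 2.39%, against 2.03%) the interval included it. The whole interval stayed under it with no filter (0.159 to 0.754%, against 0.983%) and at an FPKM of at least 5 (0.255 to 1.67%, against 2.29%). It also did with a −log10 q-value of at least 5 in both ERG lists (0.287 to 1.88%, against 2.03%). At the 2-fold ratio, the genes nearest to the other classes had shares of 0.946%, 0.851% and 0.760%. The median log2 ratios were −0.01 and −0.05, and those of all genes −0.01 and −0.07. When mAKT was added to ERG, 30 nearest genes were lower (3.33%, 2.34 to 4.71%) against 2.47% and 13 were higher (1.44%) against 2.02%. Between RWPE1-mAKT and RWPE1-vector cells 3 were higher against 1.13% of all genes and 7 lower against 0.814%, and between RWPE1-ERG/mAKT and RWPE1-vector cells 18 were higher (2.00%) against 2.88% and 15 lower (1.66%) against 1.07%.

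Genes nearest to a region with an ERG peak were a small set of 64 in the expression table after the filter. In RWPE1-ERG cells 5 of them were higher than in RWPE1-vector cells (7.81%, 3.38 to 17%) and 0 were lower. They were ERG, IL1B, PAPL, LIMCH1 and SGK1. The ERG peaks of IL1B, LIMCH1 and SGK1 had a −log10 q-value of 1.34, under the limit of 2. The interval includes the 3.54% of all genes, and without ERG itself 4 genes remain. For the 0 lower genes the interval is 0 to 5.66%, which includes the 0.966% of all genes. In RWPE1-ERG/mAKT compared to RWPE1-mAKT cells, ERG was higher (1.56%, against 2.03% of all genes) and NRG1 was lower (1.56%, against 0.854%).

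The targeted gene followed its label. ERG had an FPKM of 0.264 in RWPE1-vector, 358 in RWPE1-ERG, 0.435 in RWPE1-mAKT and 328 in RWPE1-ERG/mAKT cells, and the ERG-line region in its exon had an ATAC fold enrichment of 13.1 in RWPE1-ERG and 7.21 in RWPE1-ERG/mAKT cells. AKT1 had an FPKM of 58.7, 64.2, 156 and 281 in the same order. Both lines with mAKT were the highest for AKT1. Basal keratin KRT5 (1170 to 3642) and luminal keratin KRT8 (622 to 1769) were present in every line, while KLK2 and KLK3, which mark luminal secretory cells, were at 0. Of the leukocyte markers, PTPRC and CD3E were at or near 0, whereas CD68 (24.3 to 28.9) and CD14 (0.505 to 1.09) passed the filter. The summed FPKM of 10 basal markers was 10276 in RWPE1-vector, 4684 in RWPE1-ERG, 10401 in RWPE1-mAKT and 10076 in RWPE1-ERG/mAKT cells, and that of 10 luminal markers was 1812, 4575, 2068 and 2538. The part of this shift in the values of the nearest genes was not tested. Of the endothelial markers, 1 of 10 passed the filter, EGFL7 (13.2 to 22.3), and PECAM1 was at most 0.0253.

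Other than ERG, 2 of the nearest genes were higher with ERG in both pairs of lines. These pairs share no line. ESM1, a proteoglycan secreted by endothelium, had an FPKM of 0.1002 in RWPE1-vector, 15.9 in RWPE1-ERG, 0.0399 in RWPE1-mAKT and 2.501 in RWPE1-ERG/mAKT cells, with log2 ratios of 3.94 and 1.75. TFPI, the inhibitor of the tissue factor pathway of coagulation, had 1.51, 5.82, 1.27 and 6.75, with log2 ratios of 1.45 and 1.77. For TFPI both ERG lines lay above both other lines by a similar ratio, while ESM1 in RWPE1-ERG/mAKT cells was well below its level in RWPE1-ERG cells. TFPI was nearest to 2 ERG-line regions, the closer inside its locus, and ESM1 was 93.9 kb from its region. The 3 genes including ERG are 11.5% of the 26 and 50.0% of the 6, and among all genes the 126 that were higher in both pairs are 28.4% of 443 and 49.6% of 254. Of the 10 nearest genes lower without mAKT and the 8 lower with it, 0 were lower in both pairs. Among all genes, 17 were lower in both, of 121 and 107. With so few lower nearest genes, the 0 does not show a lack of overlap.

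Several of the genes with the highest ratio in RWPE1-ERG cells had no such ratio in cells with mAKT. IL1B, an inflammatory cytokine, had an FPKM of 46.6 in RWPE1-vector, 168 in RWPE1-ERG, 42.0 in RWPE1-mAKT and 44.6 in RWPE1-ERG/mAKT cells. Its region at chr2:113569528-113569795, 17.5 kb away, was called open in both ERG lines and carried an ERG peak in RWPE1-ERG/mAKT cells (fold enrichment 4.70, −log10 q-value 1.34). The log2 ratio with ERG was thus 1.83 without mAKT and 0.08 with it, while the region by its rule was present in both. FN1, the matrix glycoprotein fibronectin, had 83.7, 228, 53.4 and 23.8 FPKM in the same order of lines. Its ratio was 1.43 without mAKT and turned to −1.13 with it. The intronic region of FN1 (chr2:216275629-216275932) carried no ERG peak.

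PRSS23, a secreted serine protease, and ANPEP, the surface aminopeptidase N, had patterns like that of IL1B. In the order vector, ERG, mAKT and ERG/mAKT, their FPKM were 8.06, 22.8, 9.82 and 8.09 for PRSS23. For ANPEP they were 4.10, 12.1, 6.00 and 3.55. RWPE1-ERG was the highest line for both genes, and in RWPE1-ERG/mAKT cells both were below their RWPE1-mAKT level, with log2 ratios of −0.25 and −0.62. NFE2L3, a transcription factor of the CNC family with 2 ERG-line regions, kept part of its ratio, at 2.49, 10.0, 3.12 and 6.32 FPKM with log2 ratios of 1.66 and 0.83. CPPED1, a phosphoesterase, had 3.73, 10.9, 2.06 and 4.67, with ratios of 1.33 and 0.89. TMEM156, a transmembrane protein, had 7.35, 20.3, 6.14 and 9.12, with ratios of 1.35 and 0.50. Among the genes nearest to a region with an ERG peak, SGK1, a serum- and glucocorticoid-induced kinase, had 15.7, 32.7, 14.7 and 25.3 FPKM. Its region was 40.3 kb away. LIMCH1, an actin-associated protein with the region inside its locus, had 3.34, 7.80, 3.36 and 6.71. PAPL, 10.3 kb from its region, had 0.273, 1.64, 0.365 and 0.502. In SGK1 and LIMCH1 both ERG lines were above both other lines.

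**Figure D5:**
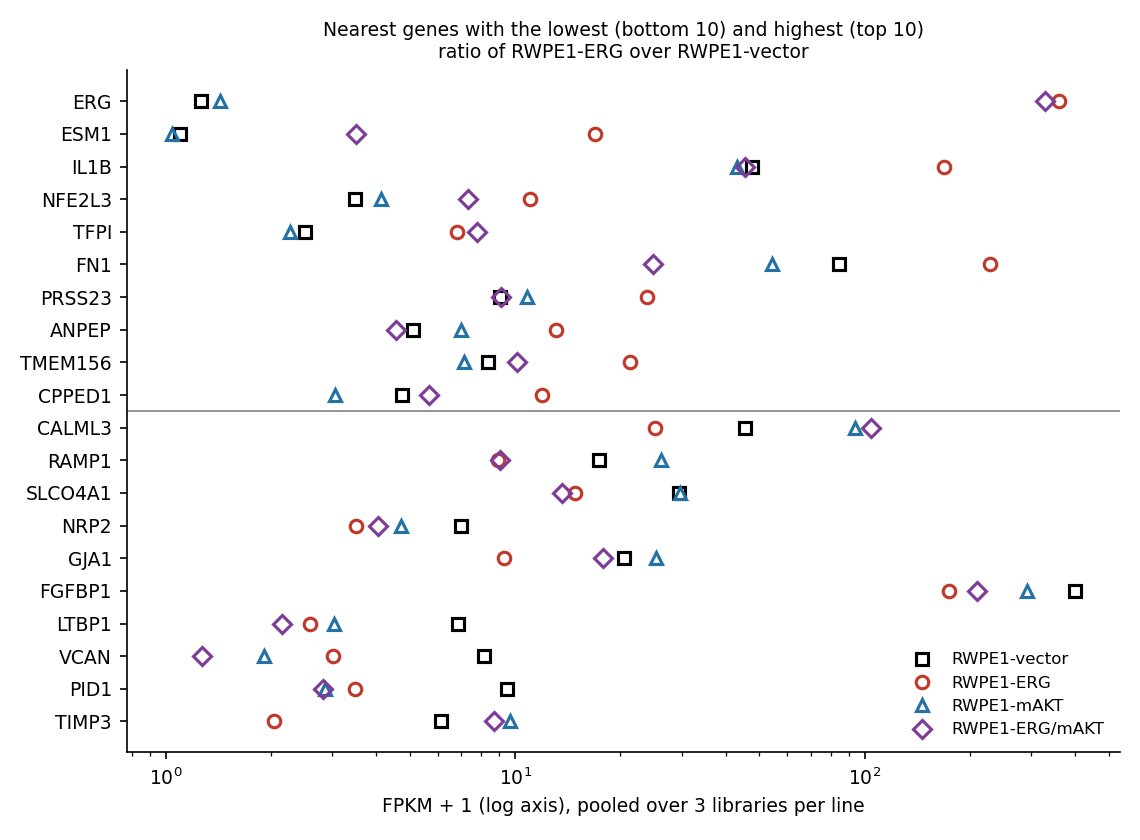
FPKM + 1 (log axis) in the 4 lines for the 10 nearest genes with the highest and the 10 with the lowest ratio of RWPE1-ERG over RWPE1-vector cells, among nearest genes whose highest line reached an FPKM of 5. Each symbol is 1 value pooled over 3 libraries, so no error is shown. For ERG, TFPI and NFE2L3 both ERG lines lie above both other lines, whereas for IL1B, FN1, PRSS23 and ANPEP the RWPE1-ERG/mAKT symbol lies at or below the RWPE1-vector symbol.

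Of the 10 genes with the lowest ratio, VCAN, the proteoglycan versican, had 7.17 FPKM in RWPE1-vector, 2.01 in RWPE1-ERG, 0.915 in RWPE1-mAKT and 0.273 in RWPE1-ERG/mAKT cells. LTBP1, which binds latent TGF-beta and was nearest to 3 ERG-line regions, had 5.84, 1.58, 2.03 and 1.16. PID1, an adaptor with a phosphotyrosine-binding domain, had 8.48, 2.47, 1.86 and 1.82. For these 3 genes RWPE1-vector was the highest line, and each of the lines with ERG, mAKT or both was lower. TIMP3, an inhibitor of matrix metalloproteinases, differed from them. Its FPKM was 5.14, 1.05, 8.65 and 7.67, so that only RWPE1-ERG cells were low, and its log2 ratio with ERG was −1.58 without mAKT and −0.16 with it. Among the genes and regions named by rule, the table gives TIMP3, CALML3, SLCO4A1, CPPED1, PRSS23, TRPC4AP, NRG1, RUNX2, EGFR, FLI1, PLAU, ITGB3 and TNFAIP3 each a locus shared with other genes, and distances to them are to that locus.

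FGFBP1, which releases fibroblast growth factors from the matrix, had 398, 173, 290 and 208 FPKM in the order vector, ERG, mAKT and ERG/mAKT, with its region 0.806 kb from the gene. GJA1, the gap junction protein connexin 43, had 19.4, 8.31, 24.2 and 16.8, with log2 ratios of −1.13 and −0.50. For both genes RWPE1-ERG was the lowest line. NRP2, a receptor for semaphorins, had 6.01, 2.49, 3.70 and 3.06. SLCO4A1, an organic anion transporter, had 28.4, 13.9, 28.6 and 12.6, and RAMP1, a partner of the calcitonin receptor-like receptor, had 16.3, 7.95, 25.1 and 8.07. In these 2 genes both ERG lines were low and both other lines high, with log2 ratios of −0.98 and −1.12 for SLCO4A1 and −0.95 and −1.52 for RAMP1. CALML3, a calmodulin-like protein of epithelia, had 44.6, 24.2, 92.7 and 103, higher in both mAKT lines than in the others.

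Further genes called between RWPE1-ERG/mAKT and RWPE1-mAKT cells are named here after their values were seen. ACSL5, which activates fatty acids, had 0.0859, 0.435, 0.489 and 2.91 FPKM in the order vector, ERG, mAKT and ERG/mAKT, and ESPN, an actin-bundling protein, had 2.65, 6.00, 3.72 and 9.58. Both were highest in RWPE1-ERG/mAKT cells. The 8 lower genes were RAMP1, NRG1, DUSP6, FN1, SLCO4A1, LINC00460, TOX2 and MIR622, which was listed at 6.63 in RWPE1-mAKT cells and at 0 in the other lines.

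The fixed lists with the most genes nearest to an ERG-line region were that of ERK feedback and immediate early genes, called the ERK list below, and that of inflammatory cytokines. Each had 5 of its 12 genes in the table nearest to one, where 1731 of all 25839 genes were. ERK feedback genes dampen the RAS/ERK pathway, and the ERK list also holds genes that are not of this kind, such as EGR1. The regions of DUSP5 (77.0 kb), SPRY2 (133 kb) and TNFAIP3 (75.6 kb) were far from the gene. The gene lists were written with earlier results of these data known. For the ERK list, 0 of the 12 genes that passed the filter were called between RWPE1-ERG and RWPE1-vector cells (median log2 ratio −0.22, all genes −0.01). Of all genes, 3.54% were higher and 0.966% lower. In RWPE1-ERG/mAKT compared to RWPE1-mAKT cells 2 of the 12 were lower, against 0.854% of all genes, and 0 higher, against 2.03% (median −0.74, all genes −0.07). The ERK phosphatase DUSP6, with 2 regions, had 86.2, 59.6, 74.8 and 32.5 FPKM in the order vector, ERG, mAKT and ERG/mAKT. Its relatives, DUSP4 and DUSP5, had 17.4, 11.8, 17.7 and 9.40, and 39.1, 33.0, 39.98 and 23.7. The pathway inhibitors SPRY2 (6.31, 5.38, 5.53 and 3.85) and SPRED1 (7.88, 6.54, 6.80 and 4.69) followed them. All 5 genes were lowest in RWPE1-ERG/mAKT cells, and none of their regions carried an ERG peak.

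Of the cytokine list, 8 genes passed the filter, and 1, IL1B, was called higher with ERG without mAKT (list median 0.80, all genes −0.01). Of all genes, 3.54% were called higher. IL1A, beside IL1B on chromosome 2, had 22.9, 46.4, 28.5 and 28.9 FPKM in the order vector, ERG, mAKT and ERG/mAKT, with a region within 1 kb of a gene start. LIF, a cytokine of the IL-6 family, had 0.968, 2.42, 1.17 and 1.27, and TNFAIP3, an inhibitor of NF-kappaB, had 2.74, 6.15, 3.10 and 4.38. RWPE1-ERG was the highest line for all of these. CCL20, a chemokine, had 2.45, 2.84, 4.09 and 3.18. The region 25.0 kb from CCL20 carried an ERG peak (4.11) and had an ATAC fold enrichment of 12.2 in RWPE1-ERG and 4.19 in RWPE1-ERG/mAKT cells. In the ERG/mAKT pair of lines the list had 0 genes called, where 2.03% of all genes were higher and 0.854% lower.

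Of the mesenchymal list, 4 of the 12 genes passing the filter were higher in RWPE1-ERG than in RWPE1-vector cells, against 3.54% of all genes. In RWPE1-ERG/mAKT compared to RWPE1-mAKT cells 0 were higher and 1, FN1, was lower (list median −0.03, all genes −0.07). From this list, FN1, SNAI2 and TGFBI were nearest to an ERG-line region. SNAI2, a repressor of epithelial genes, had 68.5, 55.9, 54.9 and 35.0 FPKM in the order vector, ERG, mAKT and ERG/mAKT. TGFBI had 171, 234, 115 and 116, and its region, 34.6 kb away, carried an ERG peak (4.34, −log10 q-value 0.887). Of these 3 genes only FN1 was called. From the list of ERG targets, 1 of 9 was called between RWPE1-ERG and RWPE1-vector cells, as higher, against 3.54% of all genes. It was CTGF, a matricellular growth regulator, at 10.2, 24.1, 6.33 and 5.54 with a region over the gene. PLAU, the urokinase plasminogen activator, had 23.6, 32.6, 30.4 and 26.9, and IRS2, an adaptor of the insulin receptor, had 11.6, 7.40, 8.56 and 6.15. From the plasminogen activator and metalloproteinase list, SERPINE2, a protease inhibitor, had 32.6, 30.1, 22.0 and 12.4, and MMP13 was at most 0.0185 in any line.

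The remaining fixed lists had few genes nearest to an ERG-line region. JUN, the AP-1 subunit, had 44.8, 39.2, 43.99 and 36.3 FPKM in the order vector, ERG, mAKT and ERG/mAKT, although its region at chr1:59228623-59229056 carried an ERG peak (4.94) and had an ATAC fold enrichment of 9.64 in RWPE1-ERG cells. Of the ETS factors, ETS2 had 22.2, 19.8, 22.0 and 25.4 and FLI1, the closest relative of ERG, 2.27, 2.02, 2.16 and 1.60. TEAD1, a DNA-binding partner of YAP with 3 regions, had 19.4, 16.7, 18.4 and 16.5, and RUNX2 had 1.51, 1.39, 1.86 and 0.942. None of these 5 genes differed 2-fold. EGFR had 57.1, 32.4, 55.4 and 46.4, its ligand AREG had 8.95, 7.71, 8.66 and 4.84, and NRG1, a ligand of ERBB3 and ERBB4, had 8.87, 5.47, 8.73 and 3.25. NRG1 had an ERG peak on its region (2.94) and a log2 ratio of −1.19 in the lines with mAKT. Integrins ITGA2 (16.4, 15.3, 12.6 and 12.1) and ITGB3 (at most 0.125) and the ligand BMP4 with 3 regions (at most 0.639) were not called. No gene of the cornified envelope, basal or luminal lists was nearest to an ERG-line region.

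Of the 7 genes tied at 4 ERG-line regions, CA10, CNTNAP3 and HLA-DRB5 are described, as they come first in the order of the expression table. CA10, a carbonic anhydrase-related protein of the nervous system, had an FPKM of at most 0.103 in any line, and CNTNAP3, a neuronal adhesion protein, had 1.15, 1.14, 0.929 and 1.18. HLA-DRB5 was at most 0.00583, with its nearest region 147 kb away. These 3 genes were at or near 0 or varied little between the lines.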

How the data were processed

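ATAC-seq, ERG, ERK2 and H3K27me3 ChIP-seq and polyA RNA-seq of RWPE1 cells, and ERG ChIP-seq of VCaP cells, were used as processed by the authors, who aligned ATAC-seq and ChIP-seq reads to hg19 with Bowtie2, removed duplicates with Picard and called peaks with MACS2, with the broad setting for ATAC-seq. The headers name MACS 2.1.2 (ERG and ERK2) and 2.2.7.1 (ATAC-seq of RWPE1-mAKT and H3K27me3 of RWPE1-ERG cells). The deposited lists give each peak a pileup signal, a fold enrichment, which is a ratio, and its p-value and q-value as −log10. The ATAC lists held 62950 peaks with ERG, 57616 with mAKT and 41731 with both, and the ERG ChIP-seq list 9104 (p-value limit 0.001, from 10306483 reads of the header). Depth was in the header of 1 ATAC list only, RWPE1-mAKT, with 35688481 fragments, and is unknown for the others, so differences in depth between ATAC libraries could change which peaks are shared. The authors aligned RNA-seq reads with TopHat2 and deposited a Cuffdiff table of FPKM pooled over 3 libraries per line, so depth and replicate spread are unknown. Its columns of fold changes, test statistics, p-values and q-values were not used. There were 0 per-sample columns left unused.

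Regions on chromosomes 1 to 22 and X were assigned to classes by overlap of at least 1 bp. Motifs were counted in the GRCh37 reference in windows reaching 100 bp to either side of region centers, and places were taken from GENCODE release 44 mapped to GRCh37. Each region received the nearest gene by the locus column of the table. Genes that reached an FPKM of 1 in any line were compared by log2 of FPKM + 1, a pseudocount of 1 that understates the ratios of low genes, and a ratio of at least 2 was called. No test between libraries was made, since the table holds no values of single libraries and its own test columns were left aside. Named regions were the 8 with the highest ERG fold enrichment, the 3 with the highest ATAC fold enrichment and 3 genes nearest to most regions, the first in table order of 7 tied at 4 regions. Named genes were the 10 highest and 10 lowest ratios of RWPE1-ERG over RWPE1-vector cells among nearest genes that reached an FPKM of 5, and each nearest gene of 16 gene lists, which include 4 marker lists. Some genes that the rules name are not reported here. The regions, lists and rules were chosen with earlier results of these data known. The alternatives changed the overlap, the peak limits, the number of peaks, the window, the pseudocount, the filter and the ratio. A list attached to the VCaP input was not used, and that attached to the LY294002-treated VCaP ERG ChIP was only described, in the closing section.

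On simulated data, overlaps, classes and nearest distances of 400 intervals had 0 differences from a direct count, and 1000 of 1000 planted ETS cores were found. The work used samtools 1.23.1 and pysam 0.24.0 for sequences, matplotlib 3.10.9 for figures, and scipy 1.17.1, pandas 2.3.3 and numpy 2.4.6 under Python 3.11.15.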

Additional observations from a re-analysis of the deposited data

Results flagged for a closer look

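The list attached to the ERG ChIP-seq of LY294002-treated VCaP cells carries peak names of a broad ATAC-seq of RWPE1 cells, so that its label and its content disagree, and no result rests on it. It was looked at again because it overlapped far more of the ERG-line open regions than the list of VCaP cells treated with DMSO did. It overlapped 806 of the 2024 regions, or 39.8% (95% Wilson interval 37.7 to 42.0%), and the DMSO list 2.47%. The same list overlapped 96.6% of regions called in all 3 lines, 67.9% of those shared with RWPE1-mAKT cells and 14.4% of those of RWPE1-ERG/mAKT cells alone. Of the 806 regions, 5.33% (3.98 to 7.11%) had an ERG peak in RWPE1-ERG/mAKT cells, and of the 1218 outside the list 6.49% (5.24 to 8.01%), intervals that overlap.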

How the results depend on the processing

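Every setting gave shares or counts from the same pooled values and single libraries, so none of them measures replicate error. No paired analysis was possible because the table holds 1 FPKM per line pooled over the replicates and no columns of single samples, and for the same reason no replicate could be left out. Of 41 alternative values, 25 stayed within the limits set for them and 16 moved. With a −log10 q-value of at least 5 in both ERG lists, the number of regions was 1147, the share with an ERG peak 7.85%, with an ETS core 70.7% and with an AP-1 sequence 41.9%. With the top 33000 peaks of each list the shares were 7.35%, 59.8% and 28.2%, and 1.48% of nearest genes were higher in RWPE1-ERG/mAKT than in RWPE1-mAKT cells. Counting ERG peaks only at a −log10 q-value of at least 2 gave 1.14%, with 0.674% in regions called in all 3 lines. In windows of 50 bp to either side, 41.0% held an ETS core and 17.3% an AP-1 sequence. The ERG-line regions had the highest share of ERG peaks and of ETS cores of the 4 classes under each of these settings of regions, peaks and windows, whereas the order for AP-1 changed. For RWPE1-ERG over RWPE1-vector cells, the share of nearest genes that were higher was 5.10% with a pseudocount of 0.1 (all genes 4.90%), 1.5% with no filter (1.71%) and 9.20% (7.48 to 11.3%) at a ratio of 1.5 (7.21%), so that its place above or below all genes depended on the setting. For RWPE1-ERG/mAKT over RWPE1-mAKT cells it was 2.55% with a pseudocount of 0.1 (2.99%) and 3.99% at a ratio of 1.5 (4.42%), with intervals that included the share of all genes. Without the region in ERG, which was tried after seeing the data, the shares were 5.98% for ERG peaks and 2.77% and 0.555% for higher genes. The cause of these moves was not tested. At this depth, an ERG site without a called peak is not shown to be unbound, and a region without a RWPE1-mAKT peak is not shown to be closed.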
